A study of Mus musculus with 3 samples.

Results

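Acetylcholine acts on neurons through receptors of a pair of families, and 10 genes of these families were followed here through the neuronal nuclei of a mouse lateral habenula data set. They were the muscarinic receptor genes Chrm1, Chrm2, Chrm3, Chrm4 and Chrm5 and the nicotinic subunit genes Chrna3, Chrna4, Chrna7, Chrnb2 and Chrnb4. They were taken by name from the 32285 genes of the deposited count table and read in the 592 nuclei, of 603 in all, that the authors annotated as neurons. Nuclei came from mothers, virgin males and virgin females, each group a pool of 3 mice that gave 1 library. The labels describe the mothers as sexually experienced females and call the sorted population KASH-GFP+ BNST LHb neurons. KASH-GFP is a green fluorescent protein anchored in the envelope of the nucleus, BNST stands for bed nucleus of the stria terminalis, a limbic forebrain region, and LHb for lateral habenula, an epithalamic nucleus. Nuclei of all 3 groups were dissected as LHb and sorted for green fluorescence, so none of the groups is an unsorted control. Strain, age, days since birth of the litter and the construct that drives KASH-GFP are not stated in the labels.

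Muscarinic receptors are single proteins coupled to G proteins. Those of Chrm1, Chrm3 and Chrm5 signal through Gq and phospholipase C and can close the M-current potassium channels, which makes a neuron easier to excite. Those of Chrm2 and Chrm4 signal through Gi and Go, which lower cyclic AMP and can open G-protein-gated potassium channels. Nicotinic receptors are ion channels built of several subunits. Chrna4 and Chrnb2 subunits assemble into the high-affinity receptor of much of the brain, Chrna7 can form a receptor on its own, and Chrna3 with Chrnb4 is the pairing known from the medial habenula (MHb), the cholinergic neighbour of the LHb.

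The neuronal nuclei numbered 201 in mothers, 204 in virgin males and 187 in virgin females, with median depths of 11898, 9414 and 13181 UMIs (unique molecular identifiers, which count single captured transcripts). The unit of level is CPM, the UMIs of a gene per 1000000 UMIs of the same nuclei. The authors divided the neurons into clusters 0 to 4, of 172, 157, 97, 91 and 75 nuclei, with median depths of 11465, 9894, 12639, 15007 and 9431 UMIs. Numbers in square brackets are exact 95% intervals, which cover counting error only and leave out differences between mice, dissections and libraries. Those of CPM and of ratios also treat UMIs as independent, which leaves out variation between nuclei. A group with 1 library has no replicate spread, so groups were not tested against each other, and because the clusters were made from these counts no test between clusters is given. No cell barcode was shared between libraries.

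The LHb label was not borne out evenly by markers. Summed over 7 thalamic marker genes, clusters 0 to 4 held 7878, 2369, 9100, 11609 and 1570 CPM. Over 5 LHb marker genes they held 792, 1249, 825, 576 and 769 CPM. Pou4f1, a transcription factor that defines habenular neurons, had no UMI in clusters 0, 2 and 3, against 27.9 CPM in cluster 1 and 7.73 CPM in cluster 4. Other genes of the LHb list ran differently: Gpr151 was at 11.6 CPM in cluster 0, 14.8 CPM in cluster 1 and 1.29 CPM in cluster 4, and Gap43 was highest in cluster 0, at 231 CPM. Htr2c, a serotonin receptor gene, was lowest in cluster 4, at 245 CPM. Prkcd, a kinase gene of thalamic relay neurons, reached 189 and 536 CPM in clusters 2 and 3. The clusters are therefore called by number, and what thalamic neurons contribute to the receptor levels of clusters 0, 2 and 3 was not tested.

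Only 5 of the 10 receptor genes were seen at a depth that allowed comparison. Chrm3 gave 3410 UMIs in 405 nuclei (68.4%), Chrm2 983 in 269 nuclei (45.4%), Chrna4 265 in 161 nuclei (27.2%), Chrnb2 190 in 149 nuclei (25.2%) and Chrna7 156 in 106 nuclei (17.9%). The other 5 genes gave 15 UMIs or fewer. Levels of different genes are not ranked, because locus length can set how many nuclear transcripts a gene yields. Chrm3 spans 485 kb of chromosome 13 (9875486 to 10360847, minus strand, GRCm38) and Chrm2 140 kb of chromosome 6 (36388084 to 36528414, plus strand), whereas the annotated loci of Chrm4 and Chrm5 span 1.44 and 1.60 kb. The long loci also contain noncoding genes that could share reads, 9330158H04Rik (85 UMIs, opposite strand) in Chrm2, and Gm47405 (50 UMIs, same strand) and Gm26861 (45 UMIs, opposite strand) in Chrm3. Among the 11 nuclei that were not neurons, at a median of 4780 UMIs, Chrm3 and Chrm1 had 1 UMI each and the other 8 receptor genes none. For a gene without a UMI in 11 nuclei the exact interval still allows a share of up to 28.5%.

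Chrm3, the Gq-coupled muscarinic receptor, separated the clusters most among the muscarinic genes. From the highest to the lowest, clusters 4, 1, 3, 2 and 0 held 992 CPM [923, 1064], 644 [607, 683], 598 [559, 638], 291 [263, 321] and 107 [93.4, 121]. Cluster 4 was the highest in each of the 3 libraries and cluster 0 the lowest. The ratio of cluster 4 to cluster 0 was 9.29 [8.01, 10.8].

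In cluster 4, Chrm3 stood at 871 CPM in mothers, 1228 in virgin males and 1021 in virgin females. In cluster 0 it stood at 91.9 CPM in mothers, 118 in virgin males and 110 in virgin females. Cluster 2 of mothers held 284 CPM, that of virgin males 330 CPM and that of virgin females 277 CPM. In cluster 3 mothers had 406 CPM, virgin males 771 CPM and virgin females 619 CPM. In cluster 1 mothers had 588 CPM, virgin males 899 CPM and virgin females 535 CPM. The libraries of cluster 2 lay wholly between those of clusters 0 and 3, while the library ranges of clusters 3 and 1, and of clusters 1 and 4, overlapped.

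**Figure D1:**
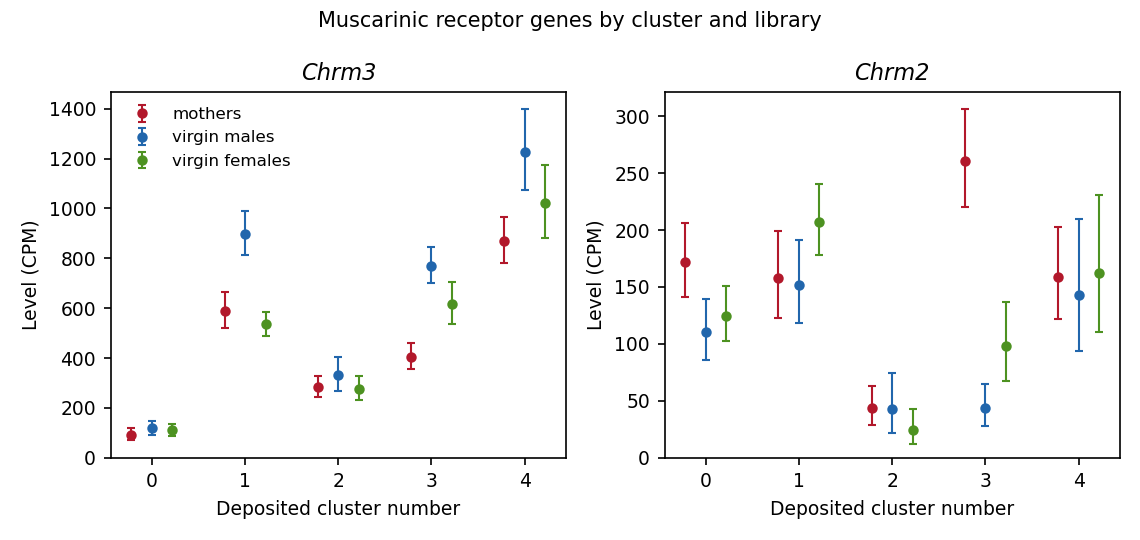
Level of the muscarinic receptor genes Chrm3 (left) and Chrm2 (right) in CPM, on linear axes from 0, by deposited cluster and library. Points are the pooled nuclei of 1 library in 1 cluster and bars are exact Poisson 95% intervals, which cover counting error only; Chrm3 is highest in cluster 4 in every library, and the Chrm2 value of 260 CPM for mothers in cluster 3 rests largely on 1 nucleus.

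By share of nuclei with a Chrm3 UMI at equal depth, cluster 4 was again the highest and cluster 0 the lowest, but cluster 1 came next to last. When each nucleus was thinned to 5000 UMIs, which left out 59 shallower nuclei, 68 of 69 nuclei of cluster 4 held a Chrm3 UMI (98.6% [92.2, 99.96]). In cluster 3 it was 81 of 89 nuclei (91.0% [83.05, 96.0]), in cluster 2 it was 59 of 94 (62.8% [52.2, 72.5]) and in cluster 1 it was 76 of 127 (59.8% [50.8, 68.4]). In cluster 0 it was 45 of 154 (29.2% [22.2, 37.1]). Without thinning, the shares were 98.7%, 95.6%, 75.3%, 60.5% and 44.2% in clusters 4, 3, 2, 1 and 0. For background, 1 of the 11 nuclei that were not neurons held a Chrm3 UMI (9.09% [0.230, 41.3]), at their median of 4780 UMIs. P2ry12, a gene of microglia, stood at 70.5 to 124 CPM in the neuronal clusters. Other microglial markers were lower. Cx3cr1 stood at 14.2 to 24.5 CPM, and C1qa, C1qb and Csf1r at 1.47 CPM or less. What RNA from outside the nuclei adds to the low Chrm3 share of cluster 0 was not tested. Clusters 1 and 3, whose mean levels were close, therefore differed in how Chrm3 was spread over their nuclei.

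Cluster 1 was mixed for Chrm3. Of its 157 nuclei, 62 had no Chrm3 UMI, its median nucleus stood at 192 CPM, and the upper quartile of its nuclei began at 947 CPM. In cluster 3, only 4 of 91 nuclei had none and the median nucleus stood at 551 CPM. The nucleus with most Chrm3 UMIs in the data, with 66 at a depth of 29473 UMIs, lay in cluster 1 of virgin females. In all, 125 nuclei held 10 or more Chrm3 UMIs, of which 39 were in cluster 1 and 35 in cluster 3.

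**Figure D2:**
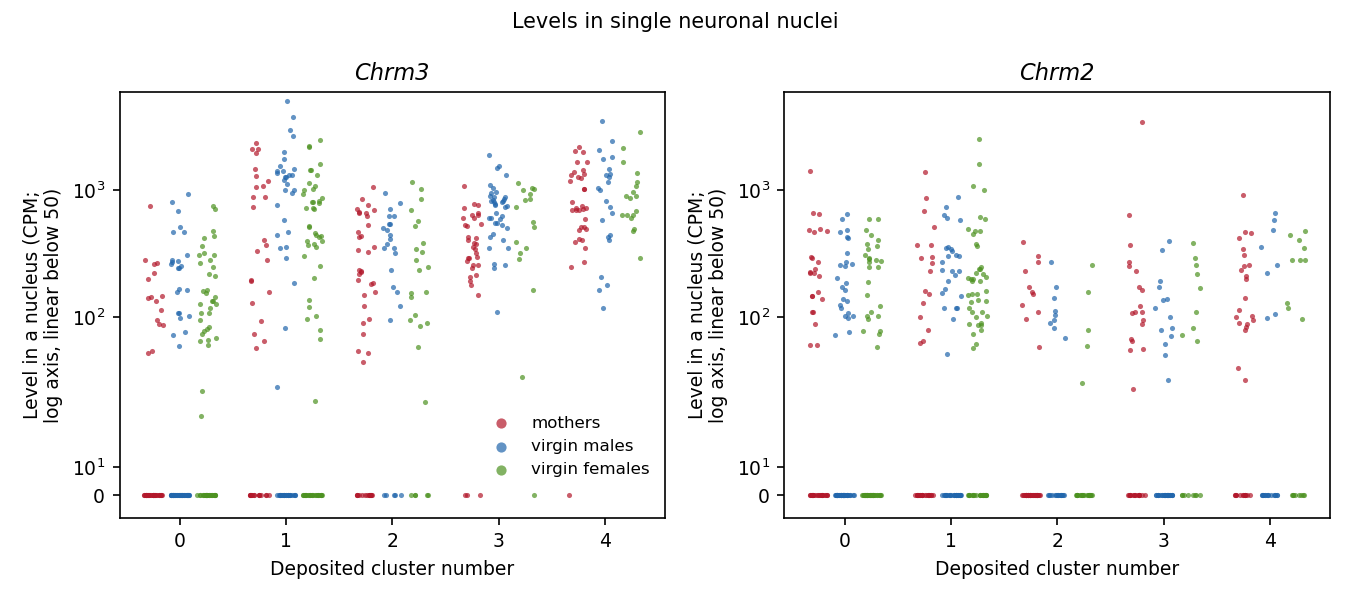
Level of Chrm3 (left) and Chrm2 (right) in each of the 592 neuronal nuclei, in CPM of that nucleus, by deposited cluster. Each point is a nucleus coloured by library; the axis is logarithmic above 50 CPM and linear below it, nuclei at 0 lie on the bottom line, and horizontal scatter within a library has no meaning. Cluster 1 shows Chrm3 nuclei both at 0 and above 1000 CPM, whereas clusters 3 and 4 have few nuclei at 0.

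Within cluster 1, nuclei with and without Chrm3 differed in habenular markers. This split was chosen after the values had been seen, is given as a description, and uses the 127 nuclei of at least 5000 UMIs. Nwd2, a gene of the MHb marker list, stood at 140 CPM in the 57 nuclei with 5 or more Chrm3 UMIs, 576 CPM in the 31 nuclei with 1 to 4 and 618 CPM in the 39 nuclei with none. Gpr151, a habenular receptor gene, had no UMI in the 57 Chrm3-rich nuclei, against 14 UMIs in the 31 and 10 UMIs in the 39, although the Chrm3-rich nuclei were the deepest, with a median of 14158 UMIs against 10216 and 10149.

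The contrast between Chrm3-rich nuclei and nuclei without Chrm3 recurred in each library. Nwd2 stood at 85.0 CPM in the 11 Chrm3-rich nuclei of mothers, against 335 CPM in their 11 nuclei without Chrm3. In virgin males it was 223 CPM in 20 Chrm3-rich nuclei and 667 CPM in 10 nuclei without Chrm3, and in virgin females it was 115 CPM in 26 and 769 CPM in 18. Chrm2 stood at 121 CPM in the Chrm3-rich nuclei, 242 CPM in those with 1 to 4 Chrm3 UMIs and 262 CPM in those with none. In mothers alone the Chrm2 order was the other way round, with 119 CPM in Chrm3-rich nuclei and 79.7 CPM in those without Chrm3.

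The summed markers of cluster 1 moved with this split as follows. The 8 MHb markers summed to 219 CPM in Chrm3-rich nuclei, 898 in those with 1 to 4 UMIs and 857 in those with none. Tac2, Tac1, Chat and Slc5a7, which define MHb neurons more closely, had 1 to 11 UMIs in each of the other 2 sets of nuclei and 0 in the Chrm3-rich set, and Slc18a3 had 0 in every set. The 5 LHb markers summed to 916, 1434 and 1248 CPM, a difference carried by virgin females, with 841 CPM in Chrm3-rich nuclei and 1561 CPM in those without Chrm3. In mothers the LHb sums were 770 and 789 CPM in those sets, and in virgin males 1149 and 1158 CPM. Pou4f1 did not share the split, at 20.7, 32.3 and 26.2 CPM. Whether a mix of habenular neuron kinds accounts for the pattern was not tested.

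Chrm2, the Gi-coupled muscarinic receptor, was spread more evenly. Clusters 1, 4, 3, 0 and 2, in falling order, held 180 CPM [161, 201], 156 [129, 186], 138 [120, 159], 135 [120, 151] and 36.7 [27.2, 48.4]. Cluster 2 was low in every library: it held 24.0 to 43.3 CPM, below every library of cluster 0, at 110 to 172 CPM. In virgin males cluster 3 was about as low, with 43.7 CPM in cluster 3 and 42.6 CPM in cluster 2. The ratio of cluster 1 to cluster 2 was 4.91 [3.64, 6.76]. As deposited, no order among clusters 0, 1, 3 and 4 held beyond the spread of the libraries.

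One nucleus set much of the Chrm2 level of cluster 3. A nucleus of mothers, with 26312 UMIs in all, held 91 Chrm2 UMIs, or 3458 CPM, against 15 in the next nucleus of that cluster. It gave 44.6% of the cluster's 204 Chrm2 UMIs and 62.8% of the mothers' 145. Without it, cluster 3 stood at 77.9 CPM of Chrm2, with 102 CPM in mothers, 43.7 in virgin males and 97.8 in virgin females. Each of these lay below every library of clusters 0, 1 and 4, the lowest being 110 CPM in cluster 0. The nucleus was left out after its value had been seen, and none was left out of the other clusters. The nucleus carried 9 Chrm3 UMIs, 13188 CPM of thalamic markers and 228 CPM of oligodendrocyte markers. It held no UMI of the astrocyte, microglial or endothelial markers.

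Other Chrm2-rich nuclei were few. Only 15 nuclei held 10 or more Chrm2 UMIs, of which 9 came from mothers, 5 from virgin females and 1 from virgin males. This cut takes no account of depth, and nuclei of virgin males were the shallowest, at a median of 9414 UMIs. The part of depth in the split was not tested. The tenth of nuclei richest in the gene held 57.5% of all Chrm2 UMIs and, for Chrm3, 45.3%. In cluster 1, a nucleus of virgin females held 33 Chrm2 UMIs with no Chrm3 UMI at 5229 CPM of LHb markers and 3614 CPM of MHb markers.

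A minority of nuclei held a UMI of both muscarinic genes. In the 533 thinned nuclei, 95 held a UMI of each, 76 held Chrm2 alone, 234 held Chrm3 alone and 128 held neither. In cluster 4, all 23 nuclei with Chrm2 also held Chrm3, in a cluster where 68 of 69 nuclei held Chrm3. In cluster 0, 15 of the 49 nuclei with Chrm2 held Chrm3, and 75 of its 154 nuclei held neither. The count of Chrm2 UMIs per Chrm3 UMI was 1.26 [1.06, 1.51] in cluster 0, against 0.280 [0.246, 0.317], 0.126 [0.0919, 0.169], 0.231 [0.198, 0.270] and 0.157 [0.129, 0.191] in clusters 1 to 4. Cluster 0 thus had the balance most shifted to the Gi-coupled gene in each library, at 1.87 in mothers, 0.932 in virgin males and 1.14 in virgin females.

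The remaining muscarinic genes were near the limit of detection. Chrm1, a Gq-coupled receptor gene of chromosome 19 (8663789 to 8683587), gave 15 UMIs in 11 nuclei, 9 of the UMIs in cluster 1. Chrm4, Gi-coupled, gave 2 UMIs, and Chrm5, Gq-coupled, gave 1. The floor of 3 UMIs corresponds to 0.398 CPM over all neurons, and no difference between clusters or libraries is given for genes with so few UMIs.

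Chrna4, the alpha subunit of the high-affinity nicotinic receptor (chromosome 2, 181018380 to 181043546), was high in clusters 2 and 3. Clusters 2, 3, 1, 0 and 4 held 64.6 CPM [51.8, 79.6], 62.3 [50.2, 76.4], 23.9 [17.3, 32.4], 18.0 [12.8, 24.6] and 5.15 [1.40, 13.2]. In cluster 2 its libraries were at 85.1 CPM in mothers, 53.3 in virgin males and 43.6 in virgin females, and in cluster 3 mothers had 52.1 CPM, virgin males 64.7 CPM and virgin females 74.8 CPM. No library of cluster 0, 1 or 4 exceeded 31.5 CPM, and that value came from cluster 1 of mothers. Clusters 2 and 3 did not differ beyond their libraries, whereas cluster 3 and cluster 1 did not overlap.

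Pooled over libraries, the lowest Chrna4 level was that of cluster 4, the cluster richest in Chrm3. It rested on 1 UMI in mothers, 3 in virgin males and 0 in virgin females, where a count of 0 allows up to 19.3 CPM. The ratio of cluster 2 to cluster 4 was 12.5 [4.73, 47.0], a wide interval because of these 4 UMIs. In virgin males cluster 4 was not the lowest, at 16.5 CPM against 12.8 CPM in cluster 0. The library ranges of clusters 0 and 4 overlapped. At 5000 UMIs per nucleus, 25 of 94 nuclei held Chrna4 in cluster 2 (26.6% [18.0, 36.7]) and 23 of 89 in cluster 3 (25.8% [17.1, 36.2]). In cluster 4 it was 2 of 69 (2.90% [0.353, 10.1]).

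Chrnb2, the beta subunit that pairs with Chrna4 (chromosome 3, 89746195 to 89764632), differed least between clusters among the receptor genes that allowed comparison. Its levels were 32.5 CPM [24.0, 43.1], 27.9 [19.7, 38.3], 25.7 [18.7, 34.3], 20.3 [14.8, 27.3] and 19.3 [10.8, 31.9] in clusters 3, 2, 1, 0 and 4. The ratio of cluster 3 to cluster 4 was 1.68 [0.927, 3.24], an interval that includes 1. Every neighbouring pair in this order overlapped between libraries. The ends of the order did not, with each library of cluster 3 at 28.8 CPM or more and each of cluster 4 at 22.0 CPM or less. Chrnb2 shares 7252 bases with Adar on the opposite strand, and whether counting used strand is not stated, so UMIs of the pair cannot be told apart. Adar gave 900 UMIs.

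Few nuclei held both partners of the high-affinity receptor. In the 533 thinned nuclei, 10 held Chrna4 and Chrnb2 together, 63 held Chrna4 alone and 46 held Chrnb2 alone. Of the 10, 4 were in cluster 2 and 4 in cluster 3. At this depth a missing UMI does not show that a nucleus lacked the transcript.

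Chrna7, the subunit that forms receptors on its own (chromosome 7, 63098692 to 63212569), was highest in cluster 4. Clusters 4, 0, 1, 3 and 2 held 64.4 CPM [47.8, 84.9], 22.6 [16.8, 29.9], 17.7 [12.01, 25.1], 9.49 [5.19, 15.9] and 8.80 [4.55, 15.4]. Cluster 4 held 59.4 CPM in mothers, 105 in virgin males and 36.7 in virgin females, above every library of cluster 0, where mothers had 16.6 CPM, virgin males 27.1 CPM and virgin females 24.0 CPM. Cluster 4 led in each library as deposited, and its ratio to cluster 2 was 7.31 [3.84, 15.1]. In virgin females this lead rested on 7 UMIs and was lost at equal depth, where cluster 4 had 1 UMI (11.1 CPM, 1 of 18 nuclei) and cluster 0 had 11 UMIs (40.7 CPM, 10 of 54 nuclei). At equal depth 14 of 69 nuclei of cluster 4 held Chrna7 (20.3% [11.6, 31.7]), against 4 of 94 in cluster 2 (4.26% [1.17, 10.5]). Of the 14, 13 also held Chrm3, in a cluster where 68 of 69 nuclei held Chrm3. Pooled over libraries, Chrna4 was thus lowest and Chrna7 highest in cluster 4, while the clusters differed less in Chrnb2.

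**Figure D3:**
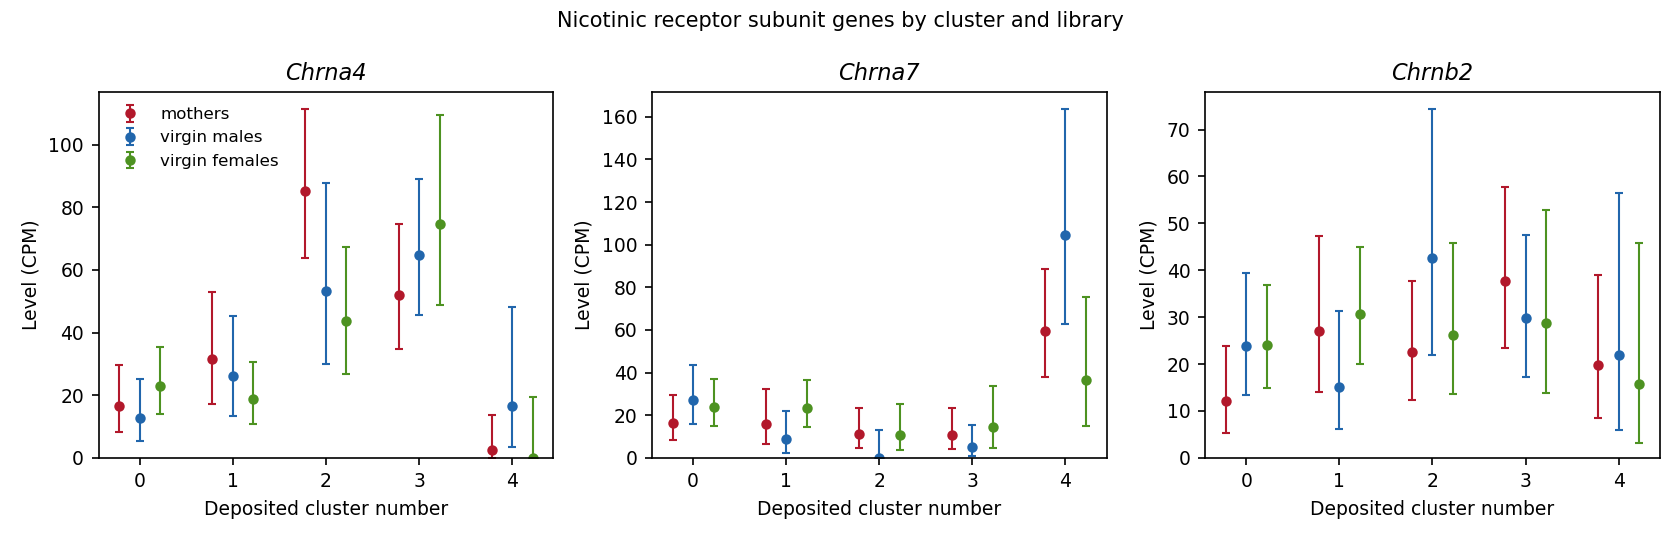
Level of the nicotinic subunit genes Chrna4, Chrna7 and Chrnb2 in CPM, on linear axes from 0 whose range differs between panels, by deposited cluster and library. Points are the pooled nuclei of 1 library in 1 cluster, and bars are exact Poisson 95% intervals for counting error only. Chrna4 is higher in clusters 2 and 3, and Chrna7 in cluster 4 (in virgin females on 7 UMIs). The Chrnb2 libraries overlap between clusters next to each other in level, but those of cluster 3 lie above those of cluster 4.

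Chrna3 and Chrnb4, the pairing known from the MHb, were rare, with 10 and 7 UMIs. They lie side by side on chromosome 9 (55010111 to 55026562 and 55028154 to 55048779). The authors labelled 4 neuronal nuclei as MHb, all in cluster 1, and these held 5 of the 10 Chrna3 UMIs and 3 of the 7 Chrnb4 UMIs. The 588 nuclei labelled LHb held the other 5 and 4 UMIs. By the authors' second subtype scheme, cluster 1 divided into 71 nuclei called LHb4, the 4 MHb nuclei among them, and 86 called LHb2. The LHb4 nuclei held 6 Chrna3 and 5 Chrnb4 UMIs, including the 5 and 3 of the MHb nuclei, and the LHb2 nuclei held none of either. The same split gave Chrm3 789 CPM [723, 858] in LHb4 and 553 CPM [509, 599] in LHb2, although 56.3% of LHb4 and 64.0% of LHb2 nuclei held a Chrm3 UMI. In virgin females Chrm3 was about level, at 540 CPM in LHb4 and 533 CPM in LHb2. In mothers it was 721 and 508 CPM, and in virgin males 1185 and 649 CPM. For Chrm2 the split gave 234 CPM [199, 273] in LHb4 and 146 CPM [124, 171] in LHb2, with a UMI in 43.7% of LHb4 and 64.0% of LHb2 nuclei. The 5 LHb4 nuclei richest in Chrm2 held 33, 16, 16, 15 and 10 of the 159 UMIs of that subtype, and in virgin males the order was reversed, at 116 CPM in LHb4 and 183 CPM in LHb2.

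Clusters could be compared for the 5 receptor genes that reached 100 UMIs. Of these, 4 differed by 2-fold or more between their highest and lowest cluster, against 39.8% of the 9111 genes of at least 100 UMIs, and the exception was Chrnb2. The median ratio of the 5 was 7.31, against 1.79 over all genes. The highest cluster was the same in all 3 libraries for 2 of the 5, Chrm3 and Chrna7, against 23.2% of all genes, and for Chrna7 this was lost at equal depth as described above. Over the 10 genes, 96 of the 533 thinned nuclei held no receptor UMI, and 60 of these were in cluster 0. The mean number of receptor genes per nucleus was 0.883, 1.36, 1.29, 1.60 and 1.65 in clusters 0 to 4.

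Mothers and virgin females were set side by side to see how the receptors stood with maternal experience. Chrm3 had the same level in both, 400 CPM [377, 425] for mothers and 400 CPM [376, 424] for virgin females, a ratio of 1.00 [0.919, 1.09]. Chrm2 came to 156 CPM [141, 172] for mothers against 133 CPM [119, 147] for virgin females, a ratio of 1.17 [1.02, 1.36]. That ratio became 0.929 without the 1 nucleus of mothers described above. None of the 5 measurable receptor genes passed 1.5-fold, against 7.49% of 10388 genes with at least 50 UMIs in the pair.

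Over all neurons, the nicotinic genes likewise stayed within 1.5-fold. Chrna4 gave 40.1 CPM for mothers against 30.2 CPM for virgin females, a ratio of 1.33 [0.989, 1.79]. Mothers had 20.4 CPM of Chrna7 against 21.3 CPM in virgin females, and 23.4 CPM of Chrnb2 against 26.5 CPM in virgin females. Intervals of all 3 ratios included 1. Within cluster 2 the Chrna4 ratio was 1.95 [1.15, 3.44], from 53 UMIs in mothers and 20 UMIs in virgin females.

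For Chrm3, mothers and virgin females stood furthest apart in cluster 3. The level was 406 CPM [355, 463] for mothers against 619 CPM [539, 707] for virgin females, a ratio of 0.656 [0.542, 0.795]. In that cluster 32 of 35 nuclei of mothers and 16 of 17 of virgin females held a Chrm3 UMI. The median nucleus of mothers stood at 355 CPM and that of virgin females at 566 CPM. In the other clusters the Chrm3 ratio was 0.836, 1.10, 1.02 and 0.853 (clusters 0, 1, 2 and 4), and each interval included 1. The Chrm2 ratio in cluster 3 was 2.66 [1.82, 3.99] as deposited and 1.04 [0.665, 1.65] without the Chrm2-rich nucleus. In cluster 0 the Chrm2 ratio was 1.38 [1.05, 1.81], from 172 CPM for mothers and 125 CPM for virgin females, with the richest nucleus of mothers holding 13.2% of their UMIs.

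Between virgin males and virgin females, Chrm3 was higher in virgin males over all neurons by counts. It stood at 587 CPM [555, 620] in virgin males and 400 CPM in virgin females, a ratio of 1.47 [1.35, 1.59]. Virgin males were higher in 5 of 5 clusters, with ratios of 1.07, 1.68, 1.19, 1.25 and 1.20 in clusters 0 to 4, and the interval lay above 1 in clusters 1 and 3. At equal depth cluster 0 turned round, with 26 UMIs (92.9 CPM) in virgin males and 34 UMIs (126 CPM) in virgin females. In cluster 1 the levels were 899 CPM [815, 990] in virgin males and 535 CPM [487, 587] in virgin females, yet 30 of 53 nuclei of virgin males (56.6%) and 41 of 65 of virgin females (63.1%) held a UMI. The level and the share ran in opposite directions there, at lower depth per nucleus in virgin males. At equal depth they ran the same way, with 25 of 37 nuclei of virgin males (67.6% [50.2, 82.0]) and 32 of 57 of virgin females (56.1% [42.4, 69.3]) holding a UMI. Over all clusters at equal depth, 113 of 174 nuclei of virgin males (64.9% [57.4, 72.0]) and 102 of 172 of virgin females (59.3% [51.6, 66.7]) held a Chrm3 UMI.

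Markers of ependymal and choroid cells moved with the library of virgin males. These 4 genes summed to 350 CPM in virgin males, while mothers had 1.49 CPM and virgin females 1.10 CPM, and to 420 CPM in cluster 1 against at most 4.07 CPM elsewhere. In cluster 1 the sum was almost wholly Ttr, with 725 UMIs, against 9 UMIs of Kl and 1 UMI each of Foxj1 and Ccdc153. Among the cluster 1 nuclei deep enough for thinning, Ttr had 2 UMIs in those without Chrm3. It had 0 in those with 1 to 4 Chrm3 UMIs and 2 in those with 5 or more. At equal depth, these nuclei held 919 CPM of Chrm3 in virgin males and 481 CPM in virgin females. The part of the ependymal and choroid markers in the Chrm3 level of all cluster 1 nuclei was not tested. In cluster 3, where these markers stood at 4.07 CPM, Chrm3 was at 771 CPM [701, 847] in virgin males and 619 CPM [539, 707] in virgin females.

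Chrm2 ran the other way. It stood at 95.2 CPM [82.5, 109] in virgin males and 133 CPM [119, 147] in virgin females, a ratio of 0.717 [0.600, 0.854]. Virgin males were lower in 4 of 5 clusters, the exception being cluster 2, with 12 UMIs in virgin males and 11 in virgin females. The ratio was 0.447 [0.256, 0.772] in cluster 3 and 0.731 [0.546, 0.969] in cluster 1, and elsewhere its interval included 1. Chrna4, Chrna7 and Chrnb2 had ratios of 1.17, 0.949 and 0.978, each with an interval that included 1. None of the 5 genes passed 1.5-fold, against 7.56% of 10024 genes.

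Mothers and virgin males differ in both sex and experience. Mothers had 400 CPM of Chrm3 against 587 CPM in virgin males, a ratio of 0.682 [0.628, 0.740], and mothers were lower in 5 of 5 clusters, at ratios of 0.526 to 0.860. The interval lay below 1 in clusters 1, 3 and 4. Mothers had 156 CPM of Chrm2 against 95.2 CPM in virgin males, a ratio of 1.64 [1.38, 1.95], which made it the 1 receptor gene of 5 past 1.5-fold, against 7.27% of 9990 genes. Without the 1 Chrm2-rich nucleus the ratio was 1.30, within 1.5-fold. In cluster 3 it was 5.96 [3.88, 9.51] as deposited and 2.33 [1.42, 3.90] without that nucleus.

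**Figure D4:**
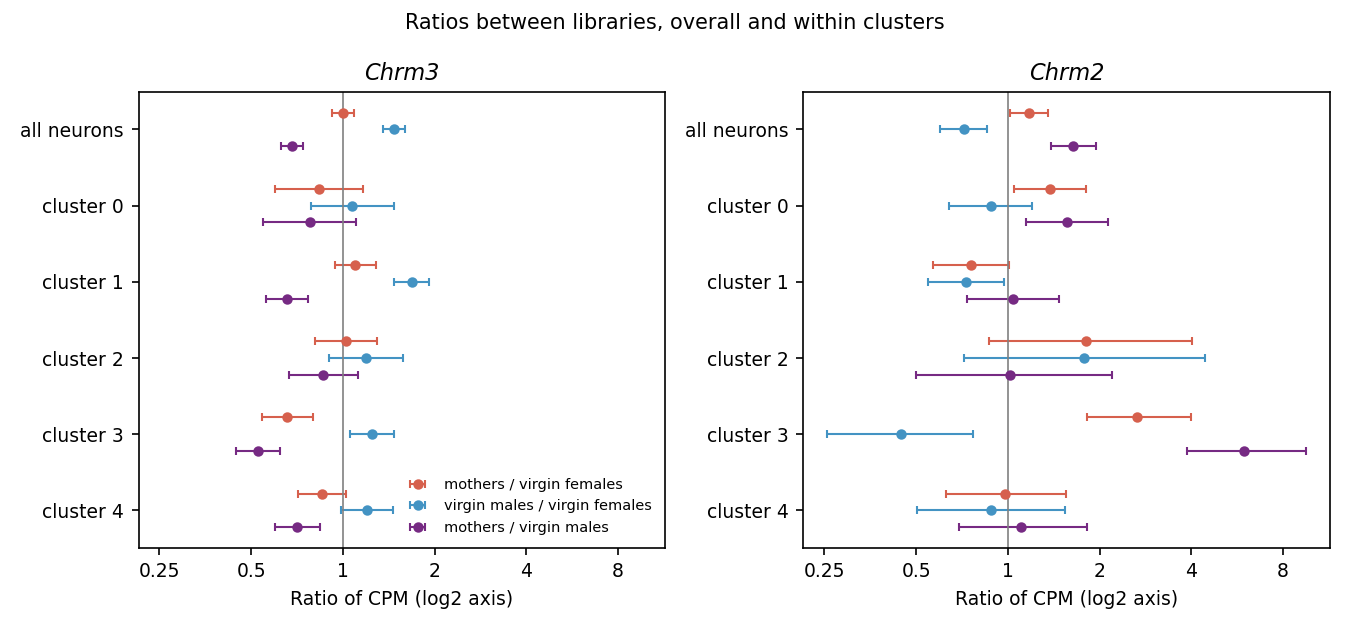
Ratio of CPM between libraries for Chrm3 (left) and Chrm2 (right), over all neurons and within each deposited cluster, on a log2 axis. Points are ratios of pooled UMIs, with the first-named group over the second, and bars are exact 95% intervals for counting error only; the vertical line marks equal levels. The 3 ratios share libraries, virgin males lie above virgin females for Chrm3 in every cluster at full depth (at equal depth not in cluster 0), and the Chrm2 ratios of mothers in cluster 3 (2.66 and 5.96) fall to 1.04 and 2.33 without 1 nucleus.

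The 3 ratios of a gene share libraries and are not independent of one another. As a balance of UMIs within a library, Chrm2 per Chrm3 was 0.390 [0.348, 0.437] in mothers, 0.162 [0.139, 0.188] in virgin males and 0.332 [0.294, 0.374] in virgin females. Without the 1 Chrm2-rich nucleus that of mothers was 0.308. The balance in virgin males was the lowest in clusters 0, 1, 3 and 4, but in cluster 2 virgin females had the lowest, at 0.0866, against 0.153 in mothers and 0.129 in virgin males. Cluster mix also differed between libraries: clusters 0 to 4 held 47, 39, 46, 35 and 34 nuclei of mothers, 64, 53, 25, 39 and 23 of virgin males and 61, 65, 26, 17 and 18 of virgin females. At the pooled cluster mix, the Chrm2 and Chrm3 ratios of mothers to virgin males were 1.65 and 0.661.

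Other nicotinic subunits were rare. Of the 11 further subunit genes, 3 had no UMI and none reached 100, the most being the 15 UMIs of Chrnb1, the beta subunit of muscle.

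Genes that help nicotinic receptors fold or that bind them at the membrane were better seen, and 7 of the 9 with at least 100 UMIs, of 10 listed, differed by 2-fold or more between clusters, against 39.8% of all genes. Their median ratio was 4.06, against 1.79 over all genes. Tmem35a encodes NACHO, a chaperone needed to assemble Chrna7 and other neuronal receptors. It stood at 63.3 CPM in cluster 1 and 15.6 CPM in cluster 3, a ratio of 4.06 [2.58, 6.67], and was not highest in cluster 4, where Chrna7 was. Ly6h, a Ly6 protein that restrains surface Chrna7 receptors, was highest in cluster 4, at 222 CPM, and lowest in cluster 3, at 76.6 CPM. Lynx1, a membrane-anchored brake on nicotinic receptors, stood at 62.2 CPM in cluster 1 and 26.3 CPM in cluster 0. Lypd6b, another Ly6 modulator, was at 97.5 CPM in cluster 1 with no UMI in cluster 3. The ratio was 48.0 against a floor of 3 UMIs in cluster 3, and ran from 13.8 to 48.6 over the alternatives of processing.

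Lypd6b was also the 1 gene of this list past 1.5-fold between mothers and virgin females, against 7.49% of all genes. Mothers had 25.6 CPM and virgin females 53.0 CPM, a ratio of 0.484 [0.358, 0.649]. Cluster 1, where the gene was highest, held 39 of 201 nuclei of mothers and 65 of 187 of virgin females. Within it mothers had 90.1 CPM [64.4, 123] of Lypd6b against 112 CPM [90.6, 137] in virgin females, and the part of the cluster mix in the ratio was not tested. Lypd6 passed 1.5-fold between mothers and virgin males, where 7.27% of all genes passed, with 13.4 CPM in mothers against 20.3 CPM in virgin males, though its ratio of 0.660 [0.412, 1.05] had an interval that included 1.

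Chat and Slc18a3, genes of cholinergic neurons, were barely seen in these sorted nuclei. Cells outside the sort were not sampled, so these counts cannot show whether a local source of acetylcholine exists. Chat, the enzyme that makes acetylcholine, gave 6 UMIs, all in cluster 1, and Slc18a3, the vesicular transporter, gave none. Of the 8 genes for synthesis, transport and breakdown, 2 reached 100 UMIs and 1 passed 2-fold, against 39.8% of all genes. That gene was Ache, which encodes the enzyme that breaks acetylcholine down, at 55.4 CPM in cluster 4 and 21.0025 CPM in cluster 3, a ratio of 2.64 [1.62, 4.33]. The library ranges overlapped, with the lowest library of cluster 4 at 22.0 CPM and the highest of cluster 3 at 31.6 CPM. The median ratio of both measured genes was 2.22.

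Downstream of Chrm3, the Gq and phospholipase C list had 8 of 14 genes measurable and 7 past 2-fold between clusters (all genes 39.8%), with a median ratio of 3.76 (all genes 1.79). Gnaq, the Gq alpha subunit itself, was even, at 220 CPM in cluster 4 and 176 CPM in cluster 3. Plcb4 and Itpr1, a phospholipase and the calcium-release channel that follows it, were both highest in cluster 3 and lowest in cluster 1, at 730 and 184 CPM for Plcb4 and 301 and 77.0 CPM for Itpr1. Plcb1, a second phospholipase, was instead highest in cluster 4, at 381 CPM, and also lowest in cluster 1, at 129 CPM. Prkcb, a protein kinase C, was highest in cluster 1, at 460 CPM, and lowest in cluster 0, at 203 CPM. No gene of the list passed 1.5-fold between any pair of libraries.

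Kcnq5 and Kcnq3, subunits of the M-current channels that Gq-coupled muscarinic receptors can close, had different highest clusters, both of them rich in Chrm3. Kcnq5 stood at 1071 CPM in cluster 4 and 32.5 CPM in cluster 3, a ratio of 32.9 [24.6, 45.0]. Kcnq3 was highest in cluster 3, at 1415 CPM, and lowest in cluster 1, at 322 CPM. Neither gene passed 1.5-fold between any pair of libraries.

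For the Gi and Go arm, which follows Chrm2, all 12 listed genes were measurable and 7 passed 2-fold, against 39.8% of all genes, with a median ratio of 2.34 against 1.79. Rgs7, which ends Go signals, was highest in cluster 3, at 1278 CPM, and lowest in cluster 4, at 362 CPM. Adcy1, an adenylyl cyclase, was at 151 CPM in cluster 3 and 42.5 CPM in cluster 4. Grk3, a kinase that silences active receptors, was at 159 CPM in cluster 3 and 70.7 CPM in cluster 1. Rgs8, a relative of Rgs7, was at 110 CPM in cluster 3 and 27.3 CPM in cluster 0. Gnao1, the Go alpha subunit, ranged only from 224 to 341 CPM.

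Between libraries, 2 genes of this arm passed 1.5-fold, each in 1 pair. Rgs9, another of the RGS proteins, was at 20.7 CPM in virgin males and 13.2 CPM in virgin females, a ratio of 1.57 [0.985, 2.50], where 7.56% of all genes passed. For Grk2, mothers had 20.1 CPM against 13.2 CPM in virgin males, a ratio of 1.52 [0.947, 2.49], where 7.27% of all genes passed. Both intervals included 1.

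Of the G-protein-gated potassium channel genes, which Gi-coupled muscarinic receptors can open, 3 of 4 were measurable and 1 passed 2-fold, a share near the 39.8% of all genes, with a median ratio of 1.78 against 1.79 over all genes. Kcnj9 stood at 173 CPM in cluster 3 and 30.9 CPM in cluster 4, a ratio of 5.61 [3.69, 8.92]. Kcnj3 and Kcnj6 differed by 1.70-fold and 1.78-fold. No gene of the list passed 1.5-fold between libraries.

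**Figure D5:**
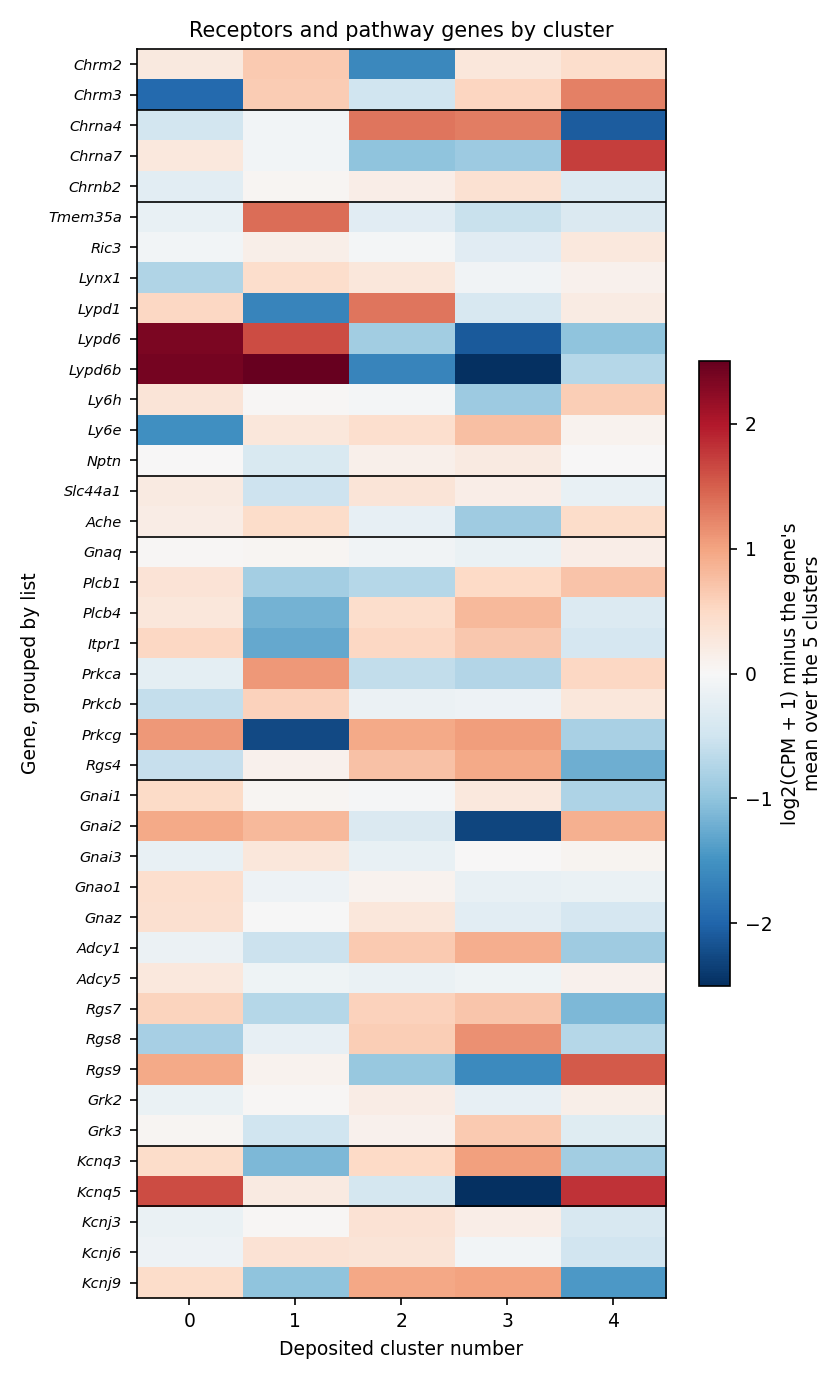
Levels of the receptor genes and of pathway genes with at least 100 UMIs, by deposited cluster, as log2(CPM + 1) minus the gene's own mean over the 5 clusters. Lines divide the lists, from the top muscarinic receptors, nicotinic subunits, chaperones and Ly6 modulators, acetylcholine turnover, Gq arm, Gi and Go arm, M-current channels and G-protein-gated channels; colours end at 2.5 in either direction. Chrm3 and Chrna7 are highest in cluster 4 and Chrna4 in clusters 2 and 3, whereas Kcnq5 has opposite values in clusters 3 and 4.

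Finally, each muscarinic gene was set against the 4632 other genes with at least 300 UMIs over the 15 sums of library and cluster. These sums share library and cluster depth, so the correlations describe likeness and carry no test. Among the nearest to Chrm3 were Unc13c, a presynaptic priming gene (Pearson's r 0.934), and Fgf14, whose product binds sodium channels (r 0.928). Unc13c stood at 35.1, 278, 152, 279 and 353 CPM in clusters 0 to 4. Nearest to Chrm2 were Ppp4r3a, a phosphatase subunit (r 0.853), Sgcz, a sarcoglycan gene (r 0.847), and Dlat, a subunit of pyruvate dehydrogenase (r 0.782). These values include the Chrm2-rich nucleus of mothers in cluster 3. Without it, an alternative chosen after seeing the data, Sgcz came first (r 0.901), Dlat ranked 25 (r 0.802) and Ppp4r3a ranked 34 (r 0.785). With that nucleus included, Chrm2 and Chrm3 had an r of 0.140 with each other.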

How the data were processed

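Nuclei dissected as LHb were sorted for green fluorescence and sequenced with the 10x Chromium 3′ assay, per the labels' protocols. The authors deposited whole-number UMI counts per gene and nucleus, and a metadata table with clusters, classes and the percent of mitochondrial UMIs per nucleus. Cell Ranger 5.0.1 and GRCm38 are named in the submitters' processing notes. Intron counting, strand, filters on nuclei and doublet treatment are stated nowhere in the labels, notes or headers, and no doublet caller was run.

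The count table and the metadata were joined by total UMIs and genes with a UMI, unique for all 603 nuclei. The deposited percent recomputed from the counts with a largest difference of 0. Libraries held 2693450 UMIs for mothers, 2126642 for virgin males and 2790062 for virgin females. Counts of neuronal nuclei were summed by library, cluster or both and scaled to CPM. Poisson, Clopper-Pearson and conditional binomial intervals came from scipy 1.17.1 under Python 3.11.15, and the interval code was tested on simulated data. For ratios, 3 UMIs stood in for a count of 0. A ratio was measurable with 50 UMIs between libraries or 100 UMIs between clusters. Loci came from GENCODE for GRCm38.

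The 10 receptor genes and the further lists were chosen with earlier results of these data known. All 10 were named. Of each further list up to 4 genes were named, those with most UMIs past 2-fold between clusters, with any gene past 1.5-fold between libraries; Chat, Slc18a3, Chrnb1, Gnaq, Gnao1, Kcnj3 and Kcnj6 were added after their values were seen. Alternatives changed the UMI minimum, scaling, depth, weighting and the nuclei or libraries kept. Of the genes these rules name, 2 are not reported here.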

Additional observations from a re-analysis of the deposited data

How the results depend on the processing

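Over all alternatives no ratio reversed a call; 36 values of single genes moved past their interval and 425 did not, and 13 counts of receptor genes moved by over 1.5 times and 41 did not. Between mothers and virgin females the count past 1.5-fold was 1 in place of 0 with each nucleus weighted equally (Chrnb2, 0.660) and with thinned nuclei (Chrna4, 1.58). Between virgin males and virgin females it was 1 in place of 0 with thinned nuclei (Chrm2, 0.609) and over all annotated nuclei (Chrm3, 1.502). Between mothers and virgin males it was 0 in place of 1 with equal weights, without the 5% of nuclei with most UMIs, without the nucleus richest in each gene per library and, an alternative chosen after seeing the data, without the 1 nucleus richest in Chrm2. It was 2 at the pooled cluster mix (with Chrm3) and with a minimum of 10 UMIs (with Chrm1). The count past 2-fold between clusters was 2 in place of 4 with a minimum of 300 UMIs, where only 2 receptor genes were measurable, and stayed at 4 without each library in turn. The count with the same highest cluster was 1 with that minimum, and without each library in turn it ran from 2 to 4, with 4 without mothers and 2 without either other library. The shares of all genes past 1.5-fold moved too: from 7.49%, 7.56% and 7.27% for the 3 pairs (mothers over virgin females, virgin males over virgin females, mothers over virgin males) to 19.0%, 17.1% and 16.8% with thinned nuclei, 18.1%, 18.2% and 18.1% with a minimum of 10 UMIs and 2.26%, 1.95% and 1.99% with a minimum of 200. The share with the same highest cluster was 40.0% to 41.0% without a library, in place of 23.2%. With a library left out, fewer libraries had to share the highest cluster. Neither this share nor the count of receptor genes could therefore fall. Ratios of Chrm2 in mothers over virgin females ran from 0.927 to 1.30, those of Chrm2 in mothers over virgin males ran from 1.28 to 1.65, those of Chrm3 in virgin males over virgin females from 1.30 to 1.502, and those of Chrm3 in cluster 4 over cluster 0 from 8.78 to 11.4. No paired analysis was possible because each group has 1 library and no replicate number is shared between groups in the labels. Depth limits Chrm1, Chrm4, Chrm5, Chrna3 and Chrnb4, and the causes of the changes were not tested. Likeness to Chrm2 without its richest nucleus is given with the correlations and is not among these counts.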
